A study of Mus musculus with 6 samples.

Results

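Histone lysine demethylases other than the H3K27 enzymes UTX and JMJD3 were examined in thymic natural killer T (NKT) cells that lack, by their labels, both of those enzymes. The 10 genes were named by symbol as demethylases of H3K4, H3K9 and H3K36: Kdm1a, Kdm2a, Kdm2b, Kdm3a, Kdm3b, Kdm4a, Kdm4b, Kdm5a, Kdm5b and Kdm5c. Of these, 6 had a row in the table of 10755 genes, and Kdm2a, Kdm4a, Kdm5a and Kdm5c were not analysed here. NKT cells recognise lipids on CD1d through a T cell receptor that hardly varies. The cells were sorted from thymus as binding a CD1d tetramer and lacking CD24, NK1.1 and CD44, a gate called P1. The comparison was between 3 libraries labelled UTX/JMJD3 DKO (double knockout) and 3 WT libraries, all from fresh cells of mice on a mixed C57BL/6 and 129 background. Each genotype had 2 female libraries, numbered 1 and 2, and 1 male library, numbered 3. Neither age nor the means of deletion is given in the labels. Nor do they state that each library is its own animal, and a p-value here therefore reflects variation among the libraries, which may be technical.

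Methyl groups on histone lysines are placed by methyltransferases and removed by demethylases. LSD1, the product of Kdm1a, is an amine oxidase that uses FAD and removes mono- and dimethyl marks from H3K4. The other enzymes carry a JmjC domain, need iron, oxygen and 2-oxoglutarate, and differ in the lysine they act on: the KDM2 enzymes on H3K36, KDM3 on H3K9, KDM4 on H3K9 and H3K36, and KDM5 on H3K4. UTX and JMJD3, encoded by Kdm6a and Kdm6b, are JmjC enzymes too, and RNA levels of their relatives are compared here between cells with and without both deletions.

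Values are RPKM, a read density per unit of gene length and sequencing depth, so levels of different genes can be set side by side. Implied library totals, in M (mega) reads, were 34.4 and 32.4 in replicate 1 of DKO and WT, a deeper pair, and 5.0 to 7.2 in the other 4 libraries. The deleted genes did not separate the labels over the whole gene: Kdm6a was at RPKM 4.97, 5.28 and 3.53 in DKO and 7.06, 4.86 and 1.94 in WT, and Kdm6b at 1.41, 0.978 and 2.59 in DKO and 1.62, 3.12 and 3.65 in WT. Values over a whole gene can include exons that a deletion leaves in place, so they do not check the genotype. T cell and NKT markers were present in every library, with all 12 of the list in the table and none at 0. Of the 8 markers of immature CD4 CD8 double-positive thymocytes, 6 had a row, and their summed RPKM was 429 in DKO replicate 1 and 424 in WT replicate 1, against 10.3 to 19.6 in the other 4 libraries. High and low libraries were found in both genotypes. B cell and thymic epithelial markers had no row, and of the 10 myeloid markers only Cd68 and Fcer1g had one, with sums of 0 to 3.08 in DKO and 11.7 to 17.9 in WT. Markers of gamma-delta T cells (5 of 6 with a row) summed to 152 to 191 in DKO and 803 to 926 in WT, and those of NKT1 and NK cells (6 of 10) to 8.60 to 18.0 in DKO and 45.3 to 52.1 in WT. The part of these cells in the values below was not tested. In sorted pools, fewer cells of a type and less RNA per cell cannot be told apart. The table holds only genes above RPKM 3 in at least 2 libraries, which Cd68 and Fcer1g could not meet through DKO alone. Nor could Klrb1c of the NKT1 and NK list, at 0.552 to 0.784 in DKO and 3.51 to 10.8 in WT. For these genes a lower level in DKO was in part fixed by that cut.

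No listed demethylase differed between the genotypes at an adjusted p of 0.05. With limma's moderated test on log2(RPKM + 1) and Benjamini-Hochberg adjustment, 0 of the 6 passed, against 0.0842% of the 10694 genes tested. At an unadjusted p of 0.05 there were also 0 of 6, against 11.0% of all genes. With voom on reads recovered from the RPKM values, 0 of the 6 passed by adjusted p, against 0% of all genes. At an unadjusted p of 0.05 voom had 1 of the 6, Kdm5b, against 15.7% of all genes. One gene, Kdm5b, had groups that did not overlap, and it was higher in DKO. Among all genes tested 5.71% did not overlap with DKO higher and 11.4% did not overlap with DKO lower, and 0 of the 6 were of the second kind. The log2 changes lay above 0 for Kdm5b, Kdm3a and Kdm4b and below 0 for Kdm1a, Kdm2b and Kdm3b, with a median of 0.16, beside a median of -0.11 over all genes tested. The summed RPKM of the 6 genes was 54.6, 48.2 and 67.6 in DKO and 54.6, 42.8 and 32.7 in WT. These sums overlapped, with DKO replicate 3 the highest and WT replicate 3 the lowest.

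**Figure D1:**
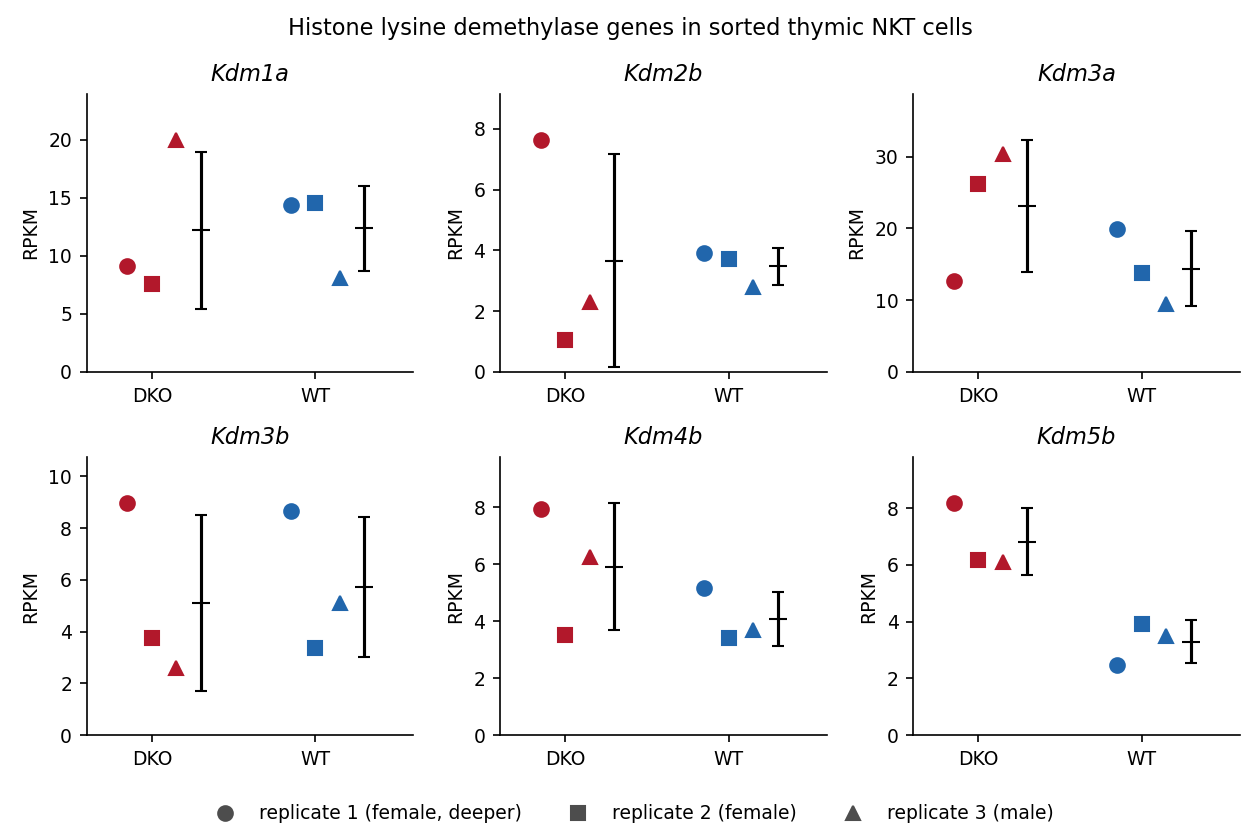
RPKM of the 6 demethylase genes in each library, DKO left and WT right, with marker shapes for the replicates and black bars for the mean and SD (n = 3 each). The groups of Kdm5b do not overlap, with DKO between 6.10 and 8.17 and WT between 2.48 and 3.93, and the groups of the other 5 genes do.

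Kdm5b (ENSMUSG00000042207) encodes a demethylase of di- and trimethylated H3K4 and was the only gene of the 6 whose groups did not overlap. It was at RPKM 8.17, 6.18 and 6.10 in DKO and 2.48, 3.93 and 3.49 in WT. Every DKO library lay above every WT library, and the highest and the lowest value both came from the deeper pair. Means were 6.82 ± 1.17 in DKO and 3.30 ± 0.747 in WT (SD, n = 3 each), a ratio of 2.07. The log2 change was 0.87 ± 0.44 (SE), with a 95% interval of -0.12 to 1.85 and an adjusted p of 0.513 by limma. An exact two-sided permutation test gave p = 0.1, the smallest that 3 libraries against 3 can give. The gene ranked 1611 by p among all genes tested. Its reads numbered 1807, 281 and 253 in DKO and 515, 183 and 113 in WT, so in the shallowest library the 95% Poisson interval of its level was RPKM 2.88 to 4.20. Such intervals cover counting error only, since reads without molecular identifiers are not independent molecules. Within the deeper pair the level in DKO was 3.30 times that in WT, and it was 1.57 times within the replicate 2 libraries and 1.75 times within the male libraries. Without replicate 1 of either genotype the log2 change was 0.60.

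The genes whose profile over the 6 libraries lay nearest that of Kdm5b were Slc50a1, Cd6, Nudt6 and C87436. Nearness was the root mean square difference of log2(RPKM + 1) after centring each gene on its mean, and it was 0.08, 0.10, 0.10 and 0.12, where Kdm5b itself varied by 0.47 about its mean. Cd6, a surface receptor that restrains T cell receptor signals, was at RPKM 182, 161 and 175 in DKO and 83.8, 111 and 104 in WT. Slc50a1, a sugar transporter, was at 129, 96.1 and 107 in DKO and 55.0, 74.5 and 66.2 in WT. In all 4 genes the WT value lowest of the 3 was replicate 1, as in Kdm5b. This follows largely from picking them by nearness over these same 6 libraries. Their adjusted p lay between 0.212 and 0.461 by limma.

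The window before the Kdm5b start is shown because this is the one listed gene whose groups were apart, and the window of Kdm3a because both genes are known to be induced by hypoxia in other cells. For Kdm3a the first of its windows in the RefSeq table is used. Each holds 250 bases ending just before the start that RefSeq annotates (build GRCm38.p6, another build than the mm9 named for these files), at chr1:134559928-134560177 on the plus strand for Kdm5b and chr6:71632918-71633167 on the minus strand for Kdm3a. Capitals mark ACGTG and GCGTG, searched on both strands, which are the cores of sites bound by hypoxia-inducible factors.
Kdm5b: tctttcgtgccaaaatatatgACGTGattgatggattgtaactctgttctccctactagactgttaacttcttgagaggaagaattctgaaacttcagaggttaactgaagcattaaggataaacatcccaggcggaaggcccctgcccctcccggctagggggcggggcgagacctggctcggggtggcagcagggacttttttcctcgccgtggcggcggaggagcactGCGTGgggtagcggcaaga
Kdm3a: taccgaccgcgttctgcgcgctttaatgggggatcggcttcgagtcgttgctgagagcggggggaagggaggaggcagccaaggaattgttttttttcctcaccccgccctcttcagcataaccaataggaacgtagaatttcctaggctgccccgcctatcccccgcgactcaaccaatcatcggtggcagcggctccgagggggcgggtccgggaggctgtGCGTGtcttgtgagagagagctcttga
The Kdm5b window held 2 such cores, 1 of each, and this Kdm3a window 1 GCGTG core. The other 2 Kdm3a windows in the RefSeq table held 0 cores. Each of the 4 windows of Kdm2b held 1 or 2, and the window of Kdm1a held 0. Of those Kdm2b windows 2 overlap and share the same cores, and the gene strand of another is unclear. At least 1 core was present in 38.6% and at least 2 in 16.7% of all 32851 RefSeq windows of this length. The GC box GGGCGG, searched the same way and overlapping neither core, occurred 1 time before Kdm5b and 2 times before Kdm3a, and in 32.7% of all windows. The CCAAT box occurred 0 times before Kdm5b and 2 times before Kdm3a, and in 33.8% of all windows. These are matches of letters and not sites shown to be bound. The windows of Kdm1a and Kdm2b are not printed. No motif counts are given for Kdm3b and Kdm4b, so the counts do not cover all the listed genes.

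Kdm1a (ENSMUSG00000036940), the LSD1 gene, was at RPKM 9.13, 7.54 and 20.0 in DKO and 14.4, 14.6 and 8.13 in WT. Both female DKO libraries lay below both female WT libraries, while the male DKO library lay above the male WT library and held the highest value of the 6. Means were 12.2 ± 6.75 in DKO and 12.4 ± 3.66 in WT (SD, n = 3 each). The log2 change was -0.09 ± 0.45 (SE), with a 95% interval of -1.09 to 0.91 and an adjusted p of 0.958, and the sign of the change turned without DKO replicate 1 (0.04), DKO replicate 2 (0.17), WT replicate 1 (0.03) or WT replicate 2 (0.04). Kdm1b, which encodes the other LSD enzyme, was at 3.70, 1.97 and 7.61 in DKO and 5.13, 5.22 and 3.75 in WT, with the female and male libraries in the same order as for Kdm1a. Kdm1a made up 74.3 ± 4.38% of the summed RPKM of this pair in DKO and 71.9 ± 3.03% in WT, and the groups overlapped.

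Among the H3K9 enzymes Kdm3a (ENSMUSG00000053470), encoding a demethylase of mono- and dimethylated H3K9, was the gene at the highest level in both genotypes. It was at RPKM 12.7, 26.2 and 30.4 in DKO and 19.9, 13.8 and 9.50 in WT. DKO replicates 2 and 3 lay above all WT libraries, and DKO replicate 1 lay below WT replicates 1 and 2. The log2 change was 0.62 ± 0.42 (SE, 95% interval -0.33 to 1.56, adjusted p = 0.626 by limma). Within the deeper pair the DKO level was 0.639 times the WT level, while it was 1.90 times within the replicate 2 libraries and 3.20 times within the male ones. The size of the change depended on single libraries: it was 0.98 without DKO replicate 1, 0.38 without DKO replicate 3 and 0.37 without WT replicate 3. With voom it was 0.19, and in the 4 female libraries 0.14. In the 4 shallower libraries it was 1.23, with an unadjusted p of 0.0158 and an adjusted p of 0.421 by limma. In that subset 10.1% of all genes had an unadjusted p under 0.05 and 0.00968% an adjusted one. The 4 genes nearest in profile to Kdm3a were Unk, Ncoa3, Styx and Sdccag8, with root mean square differences of 0.12 to 0.15 where Kdm3a varied by 0.56 about its mean. Ncoa3, a coactivator of nuclear receptors, was at 13.0, 21.9 and 28.3 in DKO and 18.2, 12.0 and 10.4 in WT.

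Kdm3b (ENSMUSG00000038773), the close relative of Kdm3a, was highest in the deeper libraries of both genotypes. It was at RPKM 8.96, 3.74 and 2.59 in DKO and 8.67, 3.38 and 5.11 in WT, so both libraries of the deeper pair were above the other 4. The log2 change was -0.20 ± 0.55 (SE, 95% interval -1.42 to 1.02, adjusted p = 0.911), and it was 0.11 without DKO replicate 3 and 0.10 without WT replicate 1. Both deeper libraries exceeded the other 4 in 2 of the 6 listed genes, Kdm2b and Kdm3b, against 11.0% of all genes tested and 14.0% of the genes at least as long as the shortest of the 6 (3054 bases). For Kdm2b the WT margin was small, with RPKM 3.93 in replicate 1 and 3.71 in replicate 2, and their 95% Poisson intervals overlapped. The deeper pair also held the high levels of immature thymocyte markers given above, Cd8a among them, at RPKM 148 and 174 in DKO and WT replicate 1 and at most 5.71 elsewhere, and whether this bears on Kdm2b and Kdm3b was not tested. Of the summed RPKM of Kdm3a, Kdm3b and Jmjd1c, which encodes the related protein JMJD1C, Kdm3a held 45.2%, 70.4% and 85.2% in DKO and 56.8%, 63.1% and 51.7% in WT. The WT shares lay inside the range of the DKO shares.

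Kdm4b (ENSMUSG00000024201) encodes an enzyme that removes methyl groups from trimethylated H3K9 and from H3K36. It was at RPKM 7.94, 3.52 and 6.27 in DKO and 5.16, 3.41 and 3.69 in WT. The groups overlapped, since DKO replicate 2 lay below WT replicates 1 and 3. The log2 change was 0.40 ± 0.47 (SE, 95% interval -0.65 to 1.45, adjusted p = 0.783). It was 0.19 without DKO replicate 1 and 0.68 without DKO replicate 2. Kdm4b and Kdm5b were the 2 genes of the 6 above WT within each pair of libraries with the same number, although for Kdm4b the ratio within the replicate 2 libraries was 1.03, and 14.8% of all genes tested had that pattern. Kdm4c, which encodes a relative with the same substrates, was at 9.63, 1.70 and 2.12 in DKO and 6.46, 3.30 and 3.21 in WT. Kdm4b held 62.4 ± 15.4% of the summed RPKM of Kdm4b and Kdm4c in DKO and 49.6 ± 4.67% in WT (SD, n = 3 each), with overlapping groups.

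Kdm2b (ENSMUSG00000029475) encodes an H3K36 demethylase with a zinc finger that binds unmethylated CpG and brings a variant Polycomb complex, PRC1.1, to CpG islands. It was at RPKM 7.64, 1.04 and 2.31 in DKO and 3.93, 3.71 and 2.79 in WT. The DKO values enclosed the WT values. On the log2(RPKM + 1) scale its SD was 1.06 in DKO, the widest of the 6 genes on that scale, and 0.20 in WT. The value of 1.04 rested on 43 reads, the fewest of any of the 6 genes in any library, with a 95% Poisson interval of 0.753 to 1.40. The log2 change was -0.20 ± 0.61 (SE, 95% interval -1.57 to 1.17, adjusted p = 0.927), and without DKO replicate 2 it was 0.27. The SD over libraries on this log2 scale was larger in DKO than in WT for 5 of the 6 genes, beside 65.4% of all genes tested. Kdm5b was the exception on this scale, at 0.21 in DKO and 0.26 in WT. In RPKM its SD was larger in DKO, at 1.17 against 0.747 in WT.

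**Figure D2:**
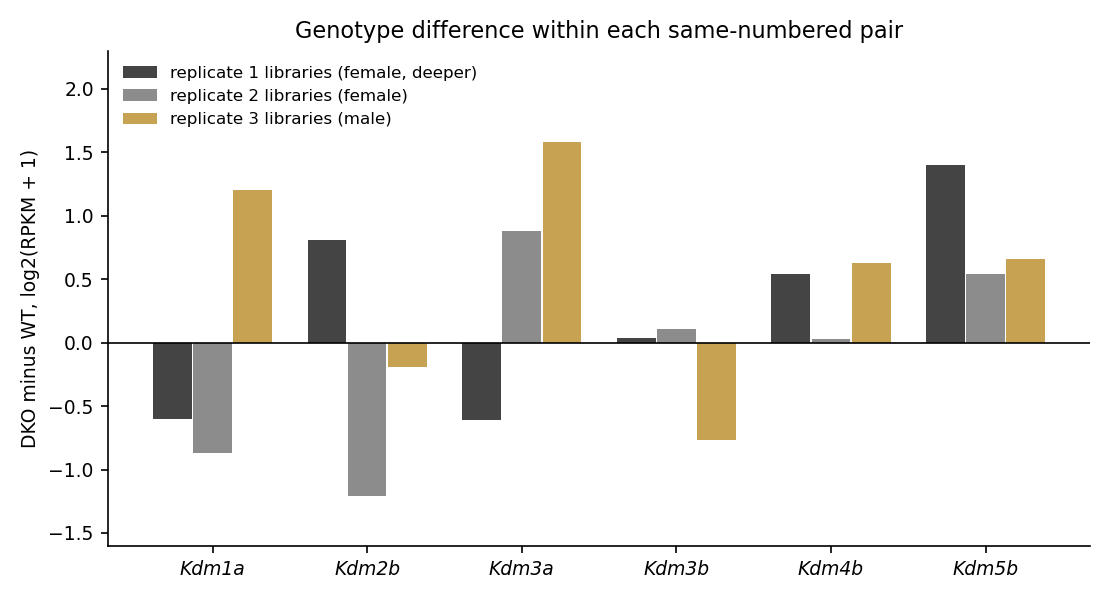
Difference of log2(RPKM + 1), DKO minus WT, within the libraries that share a replicate number, for the 6 genes. Kdm5b and Kdm4b are above 0 in each of the 3 pairs, Kdm3a is at -0.61 in the deeper pair and above 0 in the other pairs, and Kdm1a is above 0 only in the male pair.

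The order of mean levels was Kdm3a, Kdm1a, Kdm5b, Kdm4b, Kdm3b and Kdm2b in DKO, and Kdm3a, Kdm1a, Kdm3b, Kdm4b, Kdm2b and Kdm5b in WT. The ranges of every pair of neighbours in either order overlapped. Kdm3a lay at the 63.3rd percentile of mean RPKM among genes tested in DKO and the 49.3rd in WT, and Kdm5b at the 28.6th in DKO and the 9.62nd in WT. Kdm1a was at the 45.4th percentile in DKO and the 44.9th in WT. The table holds only genes above RPKM 3 in at least 2 libraries, so these percentiles are among expressed genes.

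**Figure D3:**
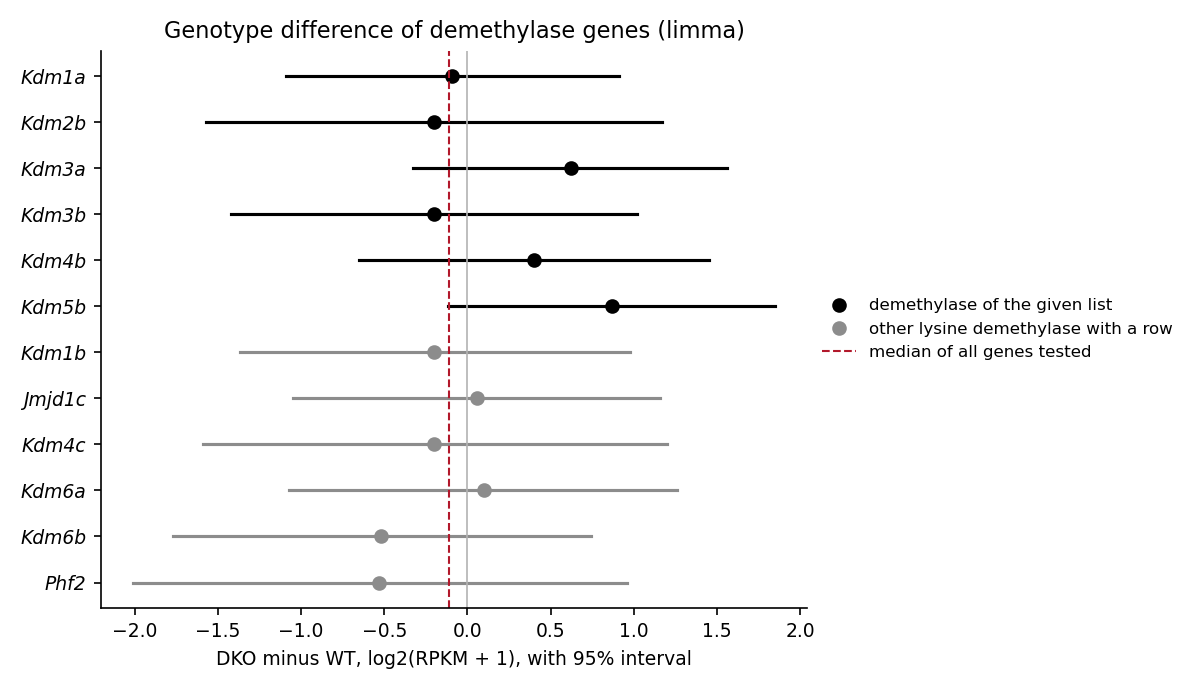
Log2 change of DKO against WT on log2(RPKM + 1) with 95% intervals from limma for the 6 listed genes (black) and the 6 other lysine demethylase genes with a row (grey). The interval of every gene holds 0, and that of Kdm5b, -0.12 to 1.85, lies furthest to the right.

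Male and female libraries were compared with genotype in the model. Of the 6 genes 0 passed by adjusted p, against 0.00935% of all genes tested. The largest difference of a male minus a female level was -0.51 ± 0.59 (SE, log2) for Kdm3b. In the test of whether the genotype difference differed between the sexes 0 of the 6 passed, and 0% of all genes did. At an unadjusted p of 0.05 Kdm1a was the 1 gene of the 6, with an interaction p of 0.0486 by limma (not an exact test) and an adjusted p of 1.00, against 2.74% of all genes. With 1 male library per genotype this test had 2 residual degrees of freedom.

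The other lysine demethylases with a row were 6 of 13 listed, namely Kdm1b, Jmjd1c, Kdm4c, Kdm6a, Kdm6b and Phf2. Of these 2 lay above 0 and 4 below, with a median log2 change of -0.20, and 0 passed by adjusted or by unadjusted p. Of all genes tested 57.1% lay below 0, and at an unadjusted p of 0.05 2.88% were higher and 8.14% lower in DKO. Kdm6b, among those below 0, exceeded RPKM 3 only in WT libraries, so its row was in the table through WT alone. Phf2, a JmjC protein linked to H3K9, was at RPKM 4.05, 14.0 and 1.12 in DKO and 7.27, 7.39 and 5.93 in WT. Among the JmjC proteins without shown lysine demethylase activity, Jarid2, a Polycomb partner, was at 18.2, 17.1 and 14.0 in DKO and 5.62, 13.9 and 7.99 in WT, with groups that did not overlap (adjusted p = 0.480). That list had 4 of 6 above 0 and a median of 0.18, and its Riox2, a ribosomal oxygenase gene, was at 15.4, 7.37 and 11.5 in DKO and 9.14, 6.25 and 7.09 in WT.

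The genes around these enzymes were read from 13 fixed lists, in which 115 genes were tested and 0 passed at an adjusted p of 0.05. Opposing H3K4 methyltransferases had 3 of 7 tested genes above 0 and a median of -0.09, and Setd1a, the catalytic subunit of a COMPASS complex, was at RPKM 6.88, 9.51 and 11.0 in DKO and 2.94, 5.41 and 4.05 in WT (log2 change 0.98, adjusted p = 0.442). Kmt2e, a relative without clear activity, was at 5.48 ± 0.742 in DKO and 3.41 ± 1.10 in WT. Subunits that COMPASS complexes share had 7 of 8 below 0 and a median of -0.36. Men1, which encodes menin, was at 10.2 ± 4.86 in DKO and 19.5 ± 3.25 in WT, and Dpy30 at 61.0 ± 17.3 in DKO and 88.8 ± 7.21 in WT. Of 5 H3K9 methyltransferases tested 3 lay above 0. Suv39h1, the heterochromatin enzyme, was at 16.2, 8.07 and 6.23 in DKO and 24.0, 16.9 and 24.2 in WT (log2 change -1.11, adjusted p = 0.344), and Ehmt2, which encodes G9a, at 42.8 ± 4.75 in DKO and 32.1 ± 4.36 in WT. Of 6 H3K36 methyltransferases 3 lay above 0, with Nsd2 at 3.02 ± 2.44 in DKO and 6.67 ± 0.950 in WT and Setd2 at 16.9 ± 5.76 in DKO and 13.8 ± 3.46 in WT.

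Partners of the listed enzymes gave values of the same kind. For LSD1, the CoREST list had 6 of 9 above 0 and a median of 0.17, with Gse1 at RPKM 5.79 ± 3.46 in DKO and 9.28 ± 2.63 in WT and the deacetylase gene Hdac1 at 68.4 ± 20.4 in DKO and 85.4 ± 4.64 in WT. For KDM2B, the PRC1.1 list had 5 of 8 below 0 and a median of -0.40, with Rybp at 1.55 ± 0.293 in DKO and 4.36 ± 1.70 in WT and Skp1a at 13.1 ± 1.57 in DKO and 20.3 ± 1.67 in WT. The table holds only genes above RPKM 3 in at least 2 libraries, and Rybp met this through WT alone. A lower level in DKO was thus built into the presence of its row. For KDM5, the Sin3 list had 10 of 12 below 0 and a median of -0.32. On it Rbbp7, a histone-binding subunit, was at 88.0, 102 and 108 in DKO and 153, 145 and 157 in WT (log2 change -0.61, adjusted p = 0.292), and Ing2 was at 7.23 ± 1.45 in DKO and 12.7 ± 3.31 in WT.

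Supply of the cofactors 2-oxoglutarate and FAD had 11 of 13 genes below 0 and a median of -0.40, and 3 were lower at an unadjusted p of 0.05, beside 57.1% of all genes below 0 and 8.14% lower at that p. Idh3a, a subunit of the mitochondrial isocitrate dehydrogenase that makes 2-oxoglutarate, was at RPKM 23.7, 40.7 and 40.9 in DKO and 93.6, 83.5 and 95.2 in WT (log2 change -1.38 ± 0.28 SE, adjusted p = 0.126). Idh2 was at 15.4, 7.23 and 42.1 in DKO and 32.7, 57.2 and 40.6 in WT. Egln2, one of the prolyl hydroxylases that use 2-oxoglutarate to mark HIF, was at 15.8, 14.5 and 21.6 in DKO and 6.33, 9.73 and 5.80 in WT (log2 change 1.15, adjusted p = 0.284). Egln1, the other tested gene of a list of TET and EGLN dioxygenases, was at 12.6 ± 1.44 in DKO and 16.2 ± 2.61 in WT. The list of hypoxia-inducible genes, which includes the HIF gene Hif1a itself, had 7 of 13 above 0, 6 below and a median of 0.11. Hif1a was at 21.2 ± 8.54 in DKO and 9.97 ± 4.33 in WT. Bnip3l was at 41.5 ± 18.1 in DKO and 20.4 ± 3.60 in WT. Only these 2 genes of the list had an unadjusted p under 0.05 by limma. Of all genes tested, 2.88% were higher in DKO at that p. Cell cycle genes had 20 of 20 below 0 and a median of -1.50, with Cdc20 at 3.88 ± 0.935 in DKO and 22.2 ± 6.45 in WT and Ccna2 at 6.91 ± 0.688 in DKO and 26.7 ± 9.19 in WT (SD, n = 3 each). The summed RPKM of these 20 genes was 372 to 679 in DKO and 1060 to 1645 in WT, and the part of this difference in the levels of the demethylase genes was not tested.

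**Figure D4:**
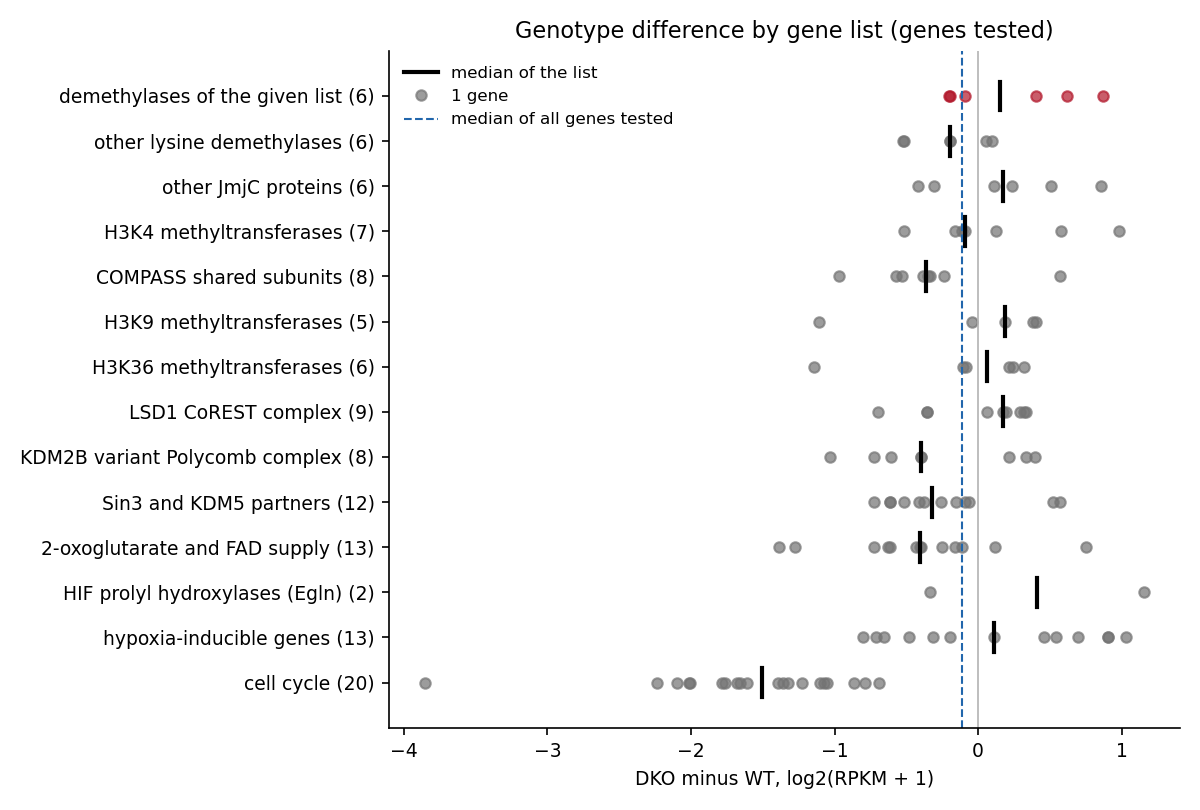
Log2 change of DKO against WT for the tested genes of each list, 1 point per gene, with the number tested in brackets, the list's median as a black bar and the median of all genes tested (-0.11) as a dashed line. The listed demethylases lie on both sides of that line, between -0.20 and 0.87, while all 20 cell cycle genes lie below it.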

How the data were processed

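RNA of sorted thymic NKT cells was measured by sequencing in 6 libraries. The labels name poly(A) RNA and cite a published library protocol. Bowtie and mm9 appear in the submitters' processing notes, while versions, annotation and counter are not stated there. The table the authors deposited holds RPKM and gene lengths for 10772 rows. In a test of the table, every row exceeded RPKM 3 in 2 or more libraries, which leaves lower genes unseen. RPKM multiplied by length gave whole reads, within 0.05, for 99.6% to 100.0% of values per library.

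Rows were named by identifier through GENCODE M21, and of rows with a common symbol the one with the highest mean was used. Genes at RPKM 1 or more in at least 3 libraries (10694) were tested with limma 3.58.1 in R 4.3.3 on log2(RPKM + 1), with a mean-variance trend and Benjamini-Hochberg adjustment at 0.05, after a check on simulated data. Fold changes on that scale understate changes of low genes. Exact permutation tests used scipy 1.17.1. Recovered reads served for depth, for Poisson intervals and for an alternative with voom. Promoter windows are from RefSeq. The genes named are the 10 listed, the 2 of each list with the smallest p, and the 4 nearest in profile to the 2 listed genes with the smallest p, and Kdm6a and Kdm6b. Kdm1b, Jmjd1c, Kdm4c and the marker genes with values were chosen after values were seen. The listed genes, lists and tests were chosen with earlier results of these data known.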

Additional observations from a re-analysis of the deposited data

Results flagged for a closer look

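For Kdm1a, the LSD1 gene, the genotype difference had opposite signs in the sexes. The female libraries were at RPKM 9.13 and 7.54 in DKO and 14.4 and 14.6 in WT, and the male libraries at 20.0 in DKO and 8.13 in WT. The DKO minus WT difference in males exceeded that in females by 1.93 ± 0.83 on the log2 scale (SE). By limma's interaction test the unadjusted p was 0.0486 and the adjusted p 1.00, so the difference between the sexes did not pass. It rests on 1 male library per genotype.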

How the results depend on the processing

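Of 19 alternatives to the genotype test, 0 called any of the 6 demethylase genes, and their median log2 change lay between 0.06 and 0.38. Kdm5b stayed above 0 in each (0.60 to 1.34, adjusted p 0.158 to 0.799), with an unadjusted p of 0.0400 with quantile normalization, 0.0196 without the variance trend and 0.00385 with voom on recovered reads. Kdm3a stayed above 0 in each (0.14 in the 4 female libraries to 1.23 in the 4 shallower ones). The number of genes called among all, 9, was 24 with array weights, 0 with voom, 1 in the 4 shallower libraries, 0 in the 4 female libraries, and 0 to 13 with 1 library left out (2 without WT replicate 1, 0 without WT replicate 2 or 3). At an unadjusted p of 0.05 voom had 1674 genes and the female libraries 743. The number of listed genes below 0 was 1 to 3 with 1 library left out, with 1 without DKO replicate 2 or WT replicate 1. Signs turned, with no call either way, for Kdm1a with array weights (0.06) and the shallower libraries (0.17), for Kdm2b with quantile normalization (0.16) and voom (0.19), for Kdm3b in the female libraries (0.08), and for the male against female difference under quantile normalization in Kdm3a (0.03) and Kdm5b (0.00). With 1 library left out the range was -0.48 to 0.17 for Kdm1a, -0.78 to 0.27 for Kdm2b and -0.63 to 0.11 for Kdm3b. The cause was not tested. Kdm1a was also at 0.01 with median scaling, which put the median of all genes at -0.01 in place of -0.11. The labels do not say that a replicate number marks a shared batch. Both replicate 1 columns are headed Set1 and share depth and thymocyte markers, and both replicate 3 libraries are male. Deviations of same-numbered libraries correlated at 0.226, 0.146 and 0.075, each the highest for its library, and whether the numbers pair the libraries is not settled. With the replicate block 9 genes were called and Kdm5b had an adjusted p of 0.423. The median standard error, 0.43 log2 units, limits what 3 libraries a group can show.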
